A study of Mus musculus with 6 samples.

Results

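Microglia and innate immune genes were examined in the hippocampus of mice that had lost CBP from forebrain excitatory neurons, a cell type that does not include microglia. The 33 members were a list of named genes, taken by symbol from the 55471 genes of the deposited count table, and all 33 passed the filter on low counts, which left 17981 genes to test. They comprised receptors and secreted products of resting microglia, the chains of complement C1q, partners of the TYROBP adaptor, leukocyte adhesion genes, lysosomal genes, transcription factors of the myeloid lineage, MHC class I genes and 2 interferon response genes. CBP (CREB-binding protein, gene Crebbp) is a histone acetyltransferase and transcriptional coactivator.

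Control and CBP-ifKO mice gave 3 libraries each, all on a background given as C57BL/6 in the labels and C57BL/6J in the study's methods, 3 to 6 months old and given tamoxifen in corn oil (20 mg/mL) intragastrically, 5 times on alternate days. CBP-ifKO mice carried floxed Crebbp alleles and Camk2a-creERT2, which encodes a Cre recombinase switched on by tamoxifen and driven by the Camk2a promoter of excitatory forebrain neurons, whereas Control mice were tamoxifen-treated littermates described as negative for that transgene, although a further label names the driver for them too. Per the study's methods, each library held RNA pooled from the hippocampi of 3 females about a month after ablation, so that p-values measure the spread between pools. Total counts ran from 10199008 to 14950257 per library. The labels were checked on the targeted gene and the driver: Crebbp lay at 209, 156 and 208 CPM (counts scaled to library size with TMM factors) in replicates 1 to 3 of Control and at 109, 87.1 and 99.4 CPM in those of CBP-ifKO (log2 fold change -0.96, edgeR adjusted p = 3.63e-05), and Esr1, part of which is fused to the recombinase, was at 5.65 to 6.29 CPM in Control libraries and 63.6 to 69.4 CPM in CBP-ifKO libraries (log2 fold change 3.45, edgeR adjusted p = 7.90e-13). Camk2a did not pass the threshold (0.09, edgeR adjusted p = 0.516).

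Microglia are the resident macrophages of the brain, maintained by signalling through the CSF1 receptor, whose ligands CSF1 and IL-34 come from other brain cells, and they survey the tissue through purinergic and chemokine receptors, of which CX3CR1 binds the neuronal ligand fractalkine (CX3CL1). In the resting state they express a homeostatic set such as Tmem119 and P2ry12, and they are the main source of C1q, which tags synapses and debris for removal through complement. When they respond to damage or to interferon, homeostatic genes tend to decline while lysosomal, antigen-presenting or interferon-stimulated genes are induced.

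Promoter windows from RefSeq (GRCm38.p6, 250 bases before to 50 after the start) were at hand for 25 of the 33 members, in 29 windows. The 4 below are shown because they belong to the member with the largest fitted difference (Ifit3), the one with the smallest p (C1qc) and 2 of high level per exon length (B2m and Ctss), and because each holds a match to an element bound by interferon-activated or myeloid transcription factors. Capitals mark those matches and the sequences run 5′ to 3′ on the strand of the gene.
Ifit3 (chr19:34583279-34583578, plus strand): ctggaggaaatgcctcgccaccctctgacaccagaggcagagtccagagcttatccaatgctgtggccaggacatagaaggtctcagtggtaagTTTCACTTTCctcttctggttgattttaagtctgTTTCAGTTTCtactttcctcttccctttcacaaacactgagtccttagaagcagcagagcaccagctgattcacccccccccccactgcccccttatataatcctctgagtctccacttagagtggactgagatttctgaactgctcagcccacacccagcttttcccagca
C1qc (chr4:136892865-136893164, minus strand): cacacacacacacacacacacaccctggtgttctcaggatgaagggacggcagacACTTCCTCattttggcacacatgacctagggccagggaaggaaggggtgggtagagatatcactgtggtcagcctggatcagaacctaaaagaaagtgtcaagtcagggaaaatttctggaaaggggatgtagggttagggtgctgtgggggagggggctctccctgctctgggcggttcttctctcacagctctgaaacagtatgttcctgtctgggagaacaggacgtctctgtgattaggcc
B2m (chr2:122147437-122147736, plus strand): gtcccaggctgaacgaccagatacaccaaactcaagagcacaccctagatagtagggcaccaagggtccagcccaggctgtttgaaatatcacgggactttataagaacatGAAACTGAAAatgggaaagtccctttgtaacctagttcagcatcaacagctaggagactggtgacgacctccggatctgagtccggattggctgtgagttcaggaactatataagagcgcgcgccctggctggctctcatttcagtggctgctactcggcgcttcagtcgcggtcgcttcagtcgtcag
Ctss (chr3:95526536-95526835, plus strand): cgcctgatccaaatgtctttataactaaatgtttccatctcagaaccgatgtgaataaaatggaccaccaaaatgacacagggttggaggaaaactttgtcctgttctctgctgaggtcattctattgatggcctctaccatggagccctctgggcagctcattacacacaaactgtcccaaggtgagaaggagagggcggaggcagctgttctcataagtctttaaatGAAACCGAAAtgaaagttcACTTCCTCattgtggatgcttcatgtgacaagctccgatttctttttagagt
In Ifit3 the capitals begin at positions -156 and -122 from the start and in B2m at -139, all matches to the interferon-stimulated response element (a pair of GAAA blocks 2 bases apart), searched on both strands. Ctss holds the same element at -21 and a PU.1-type core, GAGGAAGT, at -2, and C1qc holds that core at -195. Of the 29 windows of members, 4 held the interferon element (Aif1, B2m, Ctss and Ifit3), against 3.44% of 32851 windows in the whole table. The PU.1-type core was found in 2 of the 29 (C1qc and Ctss) against 3.20% of all windows. The ETS-IRF composite (GGAA and GAAA, 2 bases apart), whose bases can overlap those of the core but did not here, was in 1 (Cd68) against 2.71%. The cyclic AMP response element core TGACGTCA, to which CREB binds, matched 0 of the 29 and 1.79% of all windows. A match describes the letters only. The 4 members with the interferon element had log2 fold changes of -0.66 (Ifit3), -0.06 (Aif1), 0.07 (B2m) and 0.02 (Ctss). A link between the element and these values was not tested.

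Measured in whole hippocampus, 0 of the 33 genes passed the test between the genotypes. The threshold was an edgeR adjusted p under 0.05, which 6.39% of all genes tested passed in either direction and 4.99% passed as lower in CBP-ifKO, and the smallest adjusted p of a member was 0.104 (C1qc). At an unadjusted p under 0.05 there were 6 members, or 18.2%, against 21.2% of all genes. All 6 were lower in CBP-ifKO, against 13% of all genes lower at that level. DESeq2 called 0 of the 29 members to which it gave an adjusted p, and gave none to Fcer1g, Aif1, Spi1 and Irf7. In 6 members every CBP-ifKO library lay below every Control library, which held for 13.9% of all genes, and in 0 members did the reverse hold, against 11.8%. Both shares of lower members, 18.2% each, rest on 6 genes.

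Fitted values leaned toward lower levels by a small amount. Of the members, 23 (69.7%) had a log2 fold change below 0 and 10 above, against 50.7% below 0 over all genes tested. The median was -0.06 with quartiles of -0.22 and 0.01, where all genes had a median of -0.003 and quartiles of -0.16 and 0.13, and the members ranged from -0.66 (Ifit3) to 0.10 (Itgam). The standard errors of the members ran from 0.065 to 0.33 with a median of 0.14. These errors bound what could have been missed: the 95% interval lay within 1.5-fold either way for 26 members and within 2-fold for 32, against 65.1% and 89.3% of all genes for the same bounds. Those not held within 1.5-fold were Fcer1g, Itgb2, Laptm5, Spi1, H2-K1, Ifit3 and Irf7, and Ifit3 alone was not held within 2-fold. In bulk RNA, fewer cells of a type and less RNA per cell cannot be told apart.

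**Figure D1:**
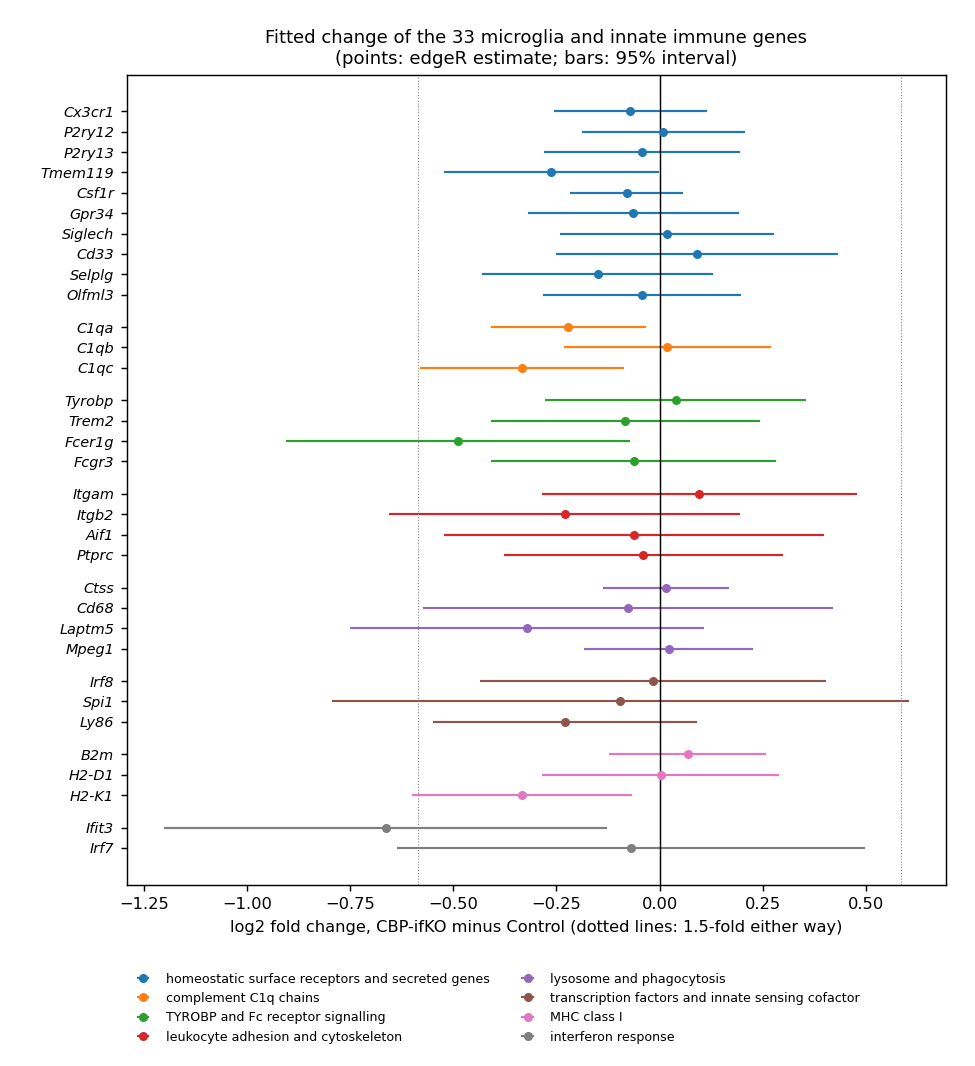
Log2 fold change of each of the 33 members, CBP-ifKO minus Control, from the edgeR fit, with bars for the 95% interval and colours for the role of the gene; dotted lines mark 1.5-fold either way. The intervals of 6 genes end below 0, and the point furthest from 0 is that of Ifit3 at -0.66.

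Levels per exon length, which allow genes to be set side by side only roughly, spanned a wide range. B2m, the light chain of MHC class I, stood highest in Control at 62.7 CPM per kb of exon, followed by the lysosomal protease gene Ctss at 41.9, C1qa at 28.9, C1qb at 19.8, P2ry12 at 17.3, Csf1r at 12.9 and Tyrobp at 12.3. The lowest were Ptprc at 0.42, Spi1 at 0.47, Irf7 at 0.50 and Irf8 at 0.52. The length takes in all annotated exons of a gene, 18313 bases for Ptprc, so the order depends on the annotation. Without the division by length, Ptprc stood at 7.71 CPM in Control and Spi1 at 1.27 CPM. Mean counts per library ran from 14.3 for Spi1 to 844 for Csf1r, and 15 members had a mean under 100 counts, where counting error takes a larger part. Members lie on 15 chromosomes and had a spread close to that of other genes, with a median ratio of variance to counting variance of 1.75 against 1.68 for all genes tested.

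**Figure D2:**
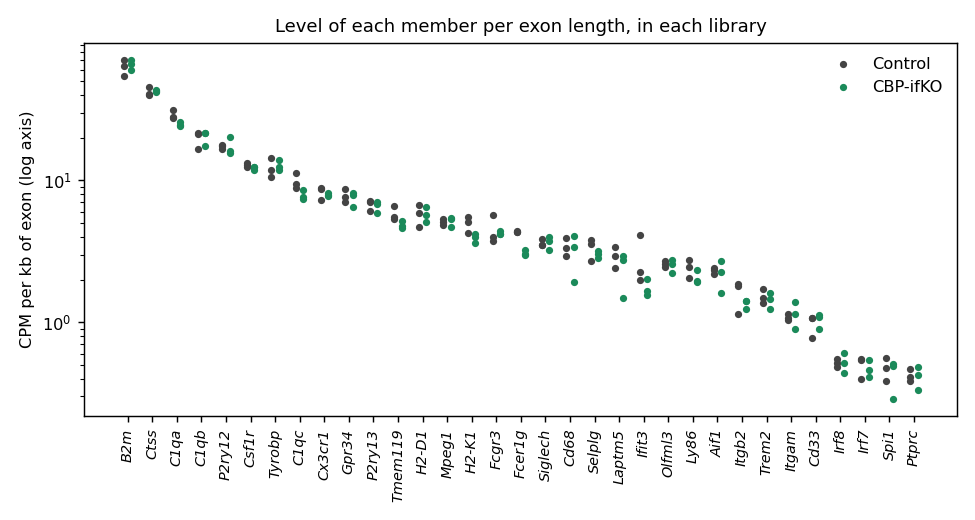
Level of each member in each of the 6 libraries, in CPM per kb of exon on a log axis, ordered by the Control mean, with Control in grey and CBP-ifKO in green. The points of both genotypes lie close together for most genes, with Fcer1g separated and Control replicate 3 standing high for Ifit3.

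Summed over the members, the level was 535, 600.4 and 575 CPM in replicates 1 to 3 of Control and 545, 556 and 534 CPM in those of CBP-ifKO. The groups overlapped, Control replicate 1 lying among the CBP-ifKO libraries, and the CBP-ifKO mean of 545 ± 10.6 CPM was 95.5% of the Control mean of 570.3 ± 33.01 CPM (SD, n = 3). Leaving out MHC class I and interferon genes, Ptprc, Laptm5, Itgb2 and Spi1 left 24 members. These gave 455 ± 18.6 CPM in Control libraries and 435 ± 8.55 CPM in CBP-ifKO libraries, or 95.6%. Among them are C1q and Fc receptor genes, which border macrophages share. Over all members without the 3 of highest level, the share was 93.6%. The lowest value of a member lay in a CBP-ifKO library for 22 members (7, 7 and 8 in replicates 1 to 3) and in a Control library for 11 (8, 2 and 1). The highest value lay in a Control library for 21 (2, 12 and 7) and in a CBP-ifKO library for 12 (3, 8 and 1). The same shares over all genes were not counted, so these splits are a description only.

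The 10 homeostatic receptors and secreted products gave 0 calls, 7 fitted values below 0 and a median log2 fold change of -0.05. Tmem119, which encodes a membrane protein used to tell microglia from other macrophages (GRCm38 chromosome 5, 113793729 to 113800516), measured 12.9, 15.2 and 12.4 CPM in Control libraries and 11.0, 11.96 and 10.7 CPM in CBP-ifKO libraries. The groups did not overlap but nearly met, the lowest Control library being 12.4 and the highest CBP-ifKO library 11.96. Its log2 fold change was -0.26 (95% interval -0.52 to -0.0023, edgeR adjusted p = 0.231). Without Control replicate 2 it was -0.16, and with each library's trend along GC content and exon length removed (GC and length offsets) it was -0.09.

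Csf1r, the receptor on which microglia depend for survival (chromosome 18, 61100598 to 61132149), was the most precisely measured member. It lay at 72.0, 77.0 and 73.9 CPM in Control libraries and at 71.7, 71.4 and 67.9 CPM in CBP-ifKO libraries, with every CBP-ifKO library below every Control library by a narrow margin. The log2 fold change was -0.08 (95% interval -0.22 to 0.06, edgeR adjusted p = 0.532), and the sign turned once GC and length trends were removed (0.0093). Csf1r shares 15.1% of its exon bases with Hmgxb3 on the other strand, and the strand setting of the counting is not given in the sources used here.

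Cx3cr1, the fractalkine receptor (chromosome 9, 119901616 to 120069879), measured 39.7, 39.4 and 32.6 CPM in Control libraries and 36.7, 35.2 and 34.7 CPM in CBP-ifKO libraries. The CBP-ifKO libraries fell between the Control libraries, and the log2 fold change was -0.07 (95% interval -0.26 to 0.11, edgeR adjusted p = 0.711). Selplg, which encodes the P-selectin ligand PSGL-1 (chromosome 5, 113818536 to 113832644), gave 11.6, 15.1 and 16.2 CPM in Control libraries and 12.99, 12.03 and 13.7 CPM in CBP-ifKO libraries, with Control replicate 1 the lowest of the 6 (-0.15, 95% interval -0.43 to 0.13, edgeR adjusted p = 0.569). The ADP receptor genes P2ry12 and P2ry13, adjacent on chromosome 3, had log2 fold changes of 0.01 and -0.04. P2ry12, whose product steers microglial processes toward injury, was at 44.1 ± 1.61 CPM in Control libraries and 44.1 ± 6.51 CPM in CBP-ifKO libraries (SD, n = 3), with a 95% interval of the fold from 0.88 to 1.15. The lysophosphatidylserine receptor Gpr34, the sialic acid receptors Siglech and Cd33 and the secreted Olfml3 lay between -0.06 and 0.09.

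Of the 3 chains of C1q, the recognition molecule of the classical complement pathway, C1qa and C1qc were lower in CBP-ifKO without overlap and C1qb was not. Their genes lie beside each other on chromosome 4 in GRCm38, C1qa at 136895917 to 136898803, C1qc at 136889804 to 136893065 and C1qb at 136880129 to 136886187, all on the minus strand, and the protein needs all 3 chains. C1qc measured 17.2, 21.9 and 18.1 CPM in Control libraries and 16.6, 14.3 and 14.8 CPM in CBP-ifKO libraries. The highest CBP-ifKO library lay just under the lowest Control library, and Control replicate 2 stood above the rest. The mean of C1qc in CBP-ifKO was 79.9% of Control, a log2 fold change of -0.33 (95% interval -0.58 to -0.09, edgeR adjusted p = 0.104). Without Control replicate 2 that value was -0.21, and with GC and length trends removed -0.20.

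C1qa lay at 29.0, 32.7 and 28.6 CPM in Control libraries and at 26.7, 25.2 and 25.7 CPM in CBP-ifKO libraries, again without overlap (log2 fold change -0.22, 95% interval -0.41 to -0.03, edgeR adjusted p = 0.158). Once GC and length trends were removed the difference was -0.04. C1qa had the highest GC content of the members (59.5%), and whether GC content accounts for that change was not tested. C1qb was at 21.6 ± 3.01 CPM in Control libraries and 22.0 ± 2.602 CPM in CBP-ifKO libraries (SD, n = 3; 0.02, 95% interval -0.23 to 0.27). The ratio of C1qc to C1qb was 0.95, 0.93 and 0.78 in Control and 0.70, 0.75 and 0.63 in CBP-ifKO, with no overlap and a log2 difference of -0.35. It was one of 6 ratios computed, all chosen after the values were seen. The exact two-sided permutation p was 0.1, the smallest that 3 libraries against 3 allow, and 0.2 after Benjamini-Hochberg adjustment over the 6 ratios. That adjustment does not correct for choosing ratios with their values known, so neither p gives support for a difference. For C1qa over C1qb the difference was -0.25 and the groups overlapped (exact permutation p = 0.2, adjusted 0.3).

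Among the 4 genes of TYROBP and Fc receptor signalling, Fcer1g had the fitted value furthest from 0. Its difference from its partners was not tested. Fcer1g encodes the common gamma chain, which passes on signals from Fc receptors (chromosome 1, 171229572 to 171234365). It measured 3.76, 3.87 and 3.77 CPM in Control libraries and 2.62, 2.83 and 2.63 CPM in CBP-ifKO libraries, without overlap. These levels rest on 40, 45 and 38 counts in Control and 27, 43 and 32 counts in CBP-ifKO. Counting error is large at such counts, so the closeness of libraries within a genotype says little about precision. The mean was 70.9% of Control, with a log2 fold change of -0.49 (95% interval -0.91 to -0.07, edgeR adjusted p = 0.159). With GC and length trends removed it was -0.47, and over the fits that left out 1 library it ran from -0.52 to -0.46. Fcgr3, an Fc receptor that signals through that gamma chain, was at 95.02% of Control (-0.06), the lipid-sensing receptor gene Trem2 at 94.2% (-0.08) and Tyrobp, the adaptor of TREM2 also known as DAP12, at 104% (0.04).

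The 4 leukocyte adhesion and cytoskeletal genes had log2 fold changes from -0.23 to 0.10. Itgb2, the beta chain of the integrin CR3 (chromosome 10, 77530252 to 77565708), lay at 3.47, 5.67 and 5.46 CPM in Control libraries and at 3.78, 4.34 and 4.28 CPM in CBP-ifKO libraries, with Control replicate 1 lowest (-0.23, 95% interval -0.65 to 0.20, edgeR adjusted p = 0.566). Its alpha chain gene Itgam had a value of 0.10 but shares 68.7% of its exon bases with Gm49368 on the same strand, so that its counts are uncertain. Aif1, which encodes the microglial stain IBA1, was at 3.54 ± 0.16 CPM in Control libraries and 3.37 ± 0.84 CPM in CBP-ifKO libraries (SD, n = 3), and Ptprc (CD45) at 7.71 ± 0.79 and 7.56 ± 1.38 CPM.

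Lysosomal and phagocytic members included some of the best measured genes. Ctss was at 56.9 ± 4.27 CPM in Control libraries and 57.6 ± 1.13 CPM in CBP-ifKO libraries (SD, n = 3), with a 95% interval of the fold from 0.91 to 1.12, and the pore-forming Mpeg1 was at 22.0 ± 1.18 and 22.3 ± 1.61 CPM. Laptm5, a lysosomal membrane protein gene of blood-derived lineages (chromosome 4, 130913125 to 130936141), gave 9.20, 11.2 and 12.9 CPM in Control libraries and 11.1, 5.65 and 10.4 CPM in CBP-ifKO libraries. CBP-ifKO replicate 2 stood far below the other libraries, and Laptm5 had the highest ratio of variance to counting variance of the members, 8.43. Its log2 fold change was -0.32 (95% interval -0.75 to 0.11, edgeR adjusted p = 0.397) and -0.04 without that library. Cd68, a marker of phagocytic activity, was at 91.9% of Control (-0.08), with libraries from 2.42 to 5.13 CPM within CBP-ifKO alone.

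The lineage transcription factor genes Spi1 (PU.1) and Irf8 were too weakly expressed in whole tissue for small differences to be seen. Spi1 was at 1.27 ± 0.24 CPM in Control libraries and 1.16 ± 0.33 CPM in CBP-ifKO libraries (SD, n = 3; 95% interval of the fold 0.58 to 1.52), and Irf8 at 3.65 ± 0.22 and 3.66 ± 0.59 CPM (0.74 to 1.32). Ly86, which encodes MD-1, a partner of the Toll-like receptor homologue RP105 (chromosome 13, 37345208 to 37419036), measured 7.42, 8.85 and 10.02 CPM in Control libraries and 8.43, 7.03 and 7.08 CPM in CBP-ifKO libraries. The groups overlapped at Control replicate 1 and CBP-ifKO replicate 1, and the log2 fold change of Ly86 was -0.23 (95% interval -0.55 to 0.09, edgeR adjusted p = 0.423).

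In MHC class I, which presents peptides to T cells and is expressed by many cell types, H2-K1 was lower without overlap while the other heavy chain gene and the light chain gene were not. H2-K1 (chromosome 17, 33996017 to 34000347) measured 12.5, 16.2 and 14.98 CPM in Control libraries and 10.6, 12.2 and 11.8 CPM in CBP-ifKO libraries. The margin between the groups was small, Control replicate 1 lying close above CBP-ifKO replicate 2. The log2 fold change of H2-K1 was -0.33 (95% interval -0.60 to -0.07, edgeR adjusted p = 0.133). H2-D1 was at 14.8 ± 2.59 and 14.9 ± 1.81 CPM (SD, n = 3; 0.003, 95% interval -0.28 to 0.29), and B2m was at 53.9 ± 6.80 and 56.5 ± 4.59 CPM (0.07). The ratio of H2-K1 to H2-D1 was 1.03, 0.94 and 0.99 in Control and 0.80, 0.83 and 0.70 in CBP-ifKO, a log2 difference of -0.34 with no overlap (exact permutation p = 0.1, adjusted 0.2). This ratio too was chosen after the values were seen, so its p adds no support. Both heavy chain genes belong to a family of near-identical sequences. Only reads of mapping quality above 10 were counted, so short reads shared between such genes could be lost and their levels are uncertain.

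The interferon response genes held the member with the largest fitted difference. Ifit3, induced by type I interferon to restrain viral translation (chromosome 19, 34583531 to 34588731), lay at 3.47, 3.95 and 7.14 CPM in Control libraries and at 2.91, 2.695 and 3.54 CPM in CBP-ifKO libraries. Control replicate 3 stood far above its fellow libraries, and CBP-ifKO replicate 3 reached above Control replicate 1. The log2 fold change of Ifit3 was -0.66 (95% interval -1.20 to -0.13, edgeR adjusted p = 0.137), and without Control replicate 3 it was -0.29 (edgeR adjusted p = 0.598). It was the one member called under any alternative, with no filter on low counts (edgeR adjusted p = 0.0451) and with a replicate block plus GC and length offsets (0.0313). With the replicate block alone its edgeR adjusted p was 0.0777. Irf7, the transcription factor that amplifies the interferon response, was at 1.88 ± 0.33 and 1.77 ± 0.25 CPM (SD, n = 3; -0.07, 95% interval -0.64 to 0.50).

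**Figure D3:**
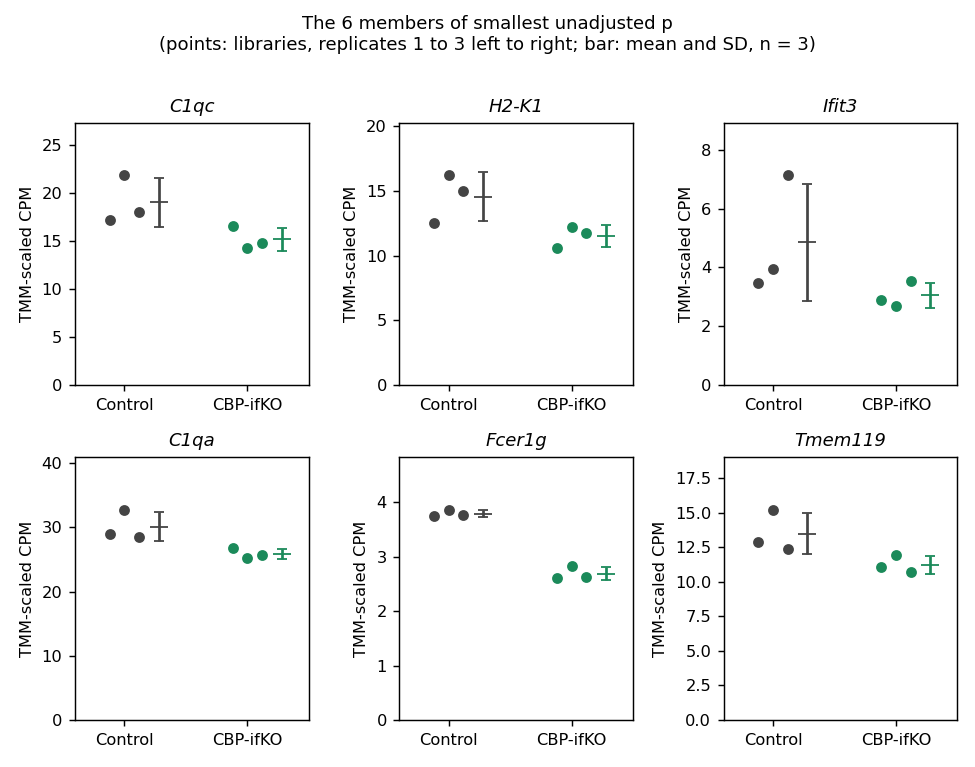
TMM-scaled CPM in each library for the 6 members of smallest unadjusted p, with the mean and SD (n = 3) beside the points, Control in grey and CBP-ifKO in green. The genotypes do not overlap for C1qc, H2-K1, C1qa, Fcer1g and Tmem119, while Control replicate 3, at 7.14 CPM, sets the Control mean of Ifit3.

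Further genes of each pathway, from lists chosen with earlier results known, were read from the same fit. Across all genes tested, 6.39% were called in either direction and 4.99% as lower in CBP-ifKO. The few calls in each list below stand beside those shares. Of 25 other interferon-stimulated genes, 20 were tested, of which 1 was called, Eif2ak2, the RNA-activated kinase PKR that halts translation. Eif2ak2 was higher in CBP-ifKO, the direction opposite to the fitted value of Ifit3, at 7.89, 8.07 and 12.1 CPM in Control libraries and 12.6, 14.7 and 13.5 CPM in CBP-ifKO libraries. Its log2 fold change was 0.55 (edgeR adjusted p = 0.0401), and the call was lost in 5 of the 6 fits that left out 1 library, all but that without Control replicate 3 (0.0569 to 0.165). Of the list, 13 had fitted values below 0, with a median of -0.12, and 8 of the 20 tested were highest in Control replicate 3, the library in which Ifit3 was high, a count made after the values were seen. The share over all genes was not counted. Other lists also had a library that was often highest, Control replicate 2 for 9 of 17 disease-associated microglia genes and 6 of 8 oligodendrocyte markers. Stat2 (0.21, edgeR adjusted p = 0.249) and Ifi27 (-0.08, 0.745), the most abundant of the interferon-stimulated list, did not pass.

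Of 28 further microglia genes 26 were tested and 1 was called: Tgfbr1, a receptor chain for TGF-beta, which maintains microglial identity and is also expressed elsewhere, lay at 60.7, 53.3 and 63.1 CPM in Control libraries and at 44.8, 49.2 and 49.2 CPM in CBP-ifKO libraries (log2 fold change -0.30, edgeR adjusted p = 0.0286). That call did not hold without Control replicate 1 or 3 or any one CBP-ifKO library (edgeR adjusted p from 0.0765 to 0.169) and with library totals only (0.0569). The median of this list was -0.03. Bin1 (-0.17, edgeR adjusted p = 0.113) and the protease gene Lgmn (0.06, 0.708) were its most abundant genes.

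Of 20 genes induced in disease-associated microglia 17 were tested and 2 were called, in opposite directions. Apoe, the lipid carrier made largely by astrocytes in healthy brain, was at 567, 739 and 602 CPM in Control libraries and 480.3, 519 and 508 CPM in CBP-ifKO libraries (-0.34, edgeR adjusted p = 0.0158), a call lost without any one CBP-ifKO library (0.0527 to 0.0790) and with GC and length offsets (-0.16, 0.156). Ctsl, the lysosomal protease cathepsin L, was at 54.1, 58.9 and 54.5 CPM in Control libraries and 65.2, 76.2 and 68.6 CPM in CBP-ifKO libraries (0.33, edgeR adjusted p = 0.0139), a call lost without Control replicate 3 (0.0798) or CBP-ifKO replicate 2 (0.0804), and it shares 26.9% of its exon bases with other annotated genes. Fth1, a ferritin chain, was at -0.06 (edgeR adjusted p = 0.689), and the median of the list was -0.08. Cst7, Itgax and Clec7a, defining genes of that state, stood under 1 CPM in every library and were not tested.

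Antigen processing (12 of 17 genes tested, median 0.0009) and Toll-like receptors, inflammasome and cytokines (17 of 26 tested, median -0.04) gave 0 calls each, and their most abundant genes Tapbp, Erap1, Nfkb1 and Nfkbiz lay between -0.04 and 0.07. Tapbp and Erap1 share 29.0% and 11.5% of their exon bases with other genes. Of 15 complement genes beyond C1q, 9 were tested and 1 was called. C4b, which acts just downstream of C1q and is expressed by glia, measured 25.4, 37.7 and 35.4 CPM in Control libraries and 25.8, 23.4 and 23.5 CPM in CBP-ifKO libraries (-0.45, edgeR adjusted p = 0.0363). The groups overlapped, Control replicate 1 lying at the CBP-ifKO level. The C4b call was lost in 5 of the 6 fits without 1 library, all but that without Control replicate 1 (0.0554 to 0.169), with library totals only (0.0512) and with GC and length offsets (0.0695). The complement regulators Csmd1 (-0.14, edgeR adjusted p = 0.241) and Cr1l (0.14, 0.405) did not pass, although Csmd1 was called without Control replicate 2 (edgeR adjusted p = 0.0335).

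The list of ligands that other cells present to microglial receptors also held receptors, among them Sirpa and Mertk. It gave 3 calls among 12 of 13 genes tested, all lower, against 4.99% of all genes, and its median was -0.15. Cx3cl1, which encodes fractalkine of neurons, fell from 262, 308 and 274 CPM in Control libraries to 256, 205 and 230 CPM in CBP-ifKO libraries, with Control replicate 1 and CBP-ifKO replicate 1 nearly level. Its log2 fold change was -0.29 (95% interval -0.46 to -0.13, edgeR adjusted p = 0.0347). Il34, the neuronal ligand of the CSF1 receptor, measured 22.2, 25.1 and 24.7 CPM in Control libraries and 17.9, 18.7 and 19.6 CPM in CBP-ifKO libraries, well apart (-0.36, 95% interval -0.56 to -0.15, edgeR adjusted p = 0.0368). Sirpa, which binds CD47 and is found on neurons as well as myeloid cells, was at 297, 294 and 280 CPM in Control libraries and 261, 222 and 238 CPM in CBP-ifKO libraries (-0.27, edgeR adjusted p = 0.0169).

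These calls were near the threshold. That of Cx3cl1 did not hold without replicate 2 or 3 of either genotype (edgeR adjusted p from 0.0807 to 0.192), with library totals only (0.0660) and with GC and length offsets (log2 fold change -0.16, 0.114). The call of Il34 was kept in 6 of 15 alternatives and lost under DESeq2 (0.0889), with GC and length offsets (log2 fold change -0.23, 0.139) and without any one library but Control replicate 1, and that of Sirpa was kept in 12 and lost without Control replicate 1 (0.0528) or CBP-ifKO replicate 2 or 3 (0.111 and 0.109). Il34 shares 4.95% of its exon bases with genes on the other strand. The receptors of the same pairs had the fitted values given above, -0.07 for Cx3cr1 and -0.08 for Csf1r. Per library, the ratio of Il34 to Csf1r was 0.31, 0.33 and 0.33 in Control and 0.25, 0.26 and 0.29 in CBP-ifKO, a log2 difference of -0.28 without overlap (exact permutation p = 0.1, the smallest possible, adjusted 0.2). As with the other ratios, it was chosen after the values were seen, so its p adds no support. The ratio of Cx3cl1 to Cx3cr1 differed by -0.23 with overlap (exact permutation p = 0.3, adjusted 0.36). Csf1, the other ligand of the CSF1 receptor, was at 23.7 ± 0.20 CPM in Control libraries and 23.8 ± 2.22 CPM in CBP-ifKO libraries (SD, n = 3; log2 fold change -0.0013, 95% interval -0.20 to 0.20), and its ratio to Csf1r differed by 0.08 (exact permutation p = 0.4, adjusted 0.4).

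**Figure D4:**
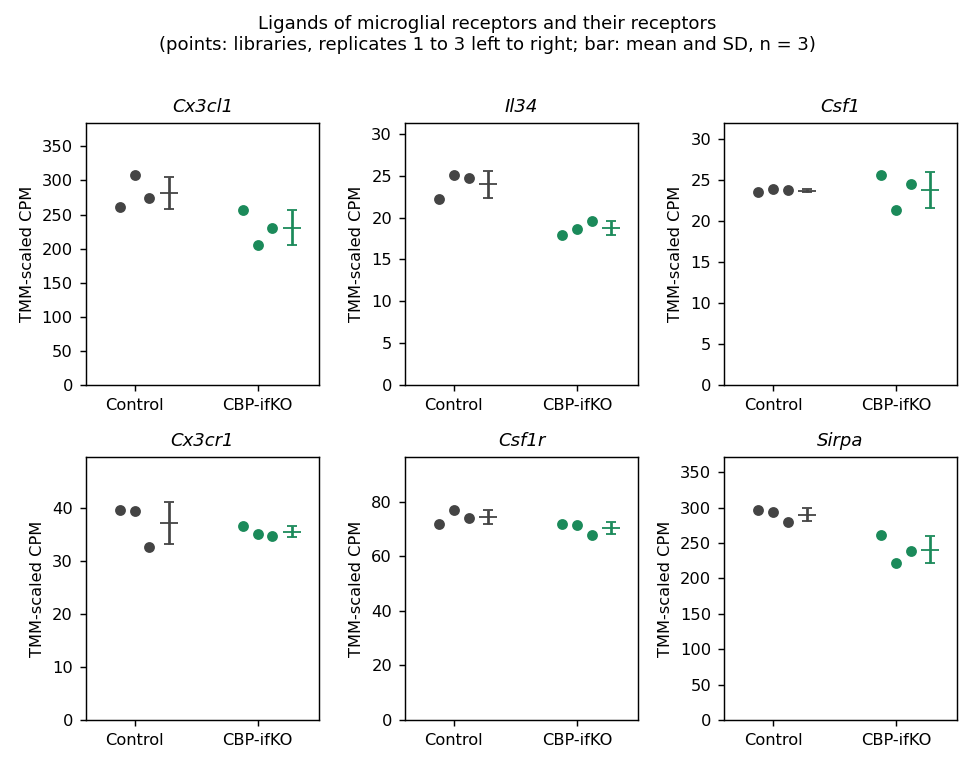
TMM-scaled CPM in each library for ligands of microglial receptors (Cx3cl1, Il34, Csf1), the receptors Cx3cr1 and Csf1r, and Sirpa, with the mean and SD (n = 3), Control in grey and CBP-ifKO in green. The genotypes are apart for Il34 and Sirpa, nearly meet without overlap for Cx3cl1, and are nearly level in the mean for Csf1.

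Markers of other cells that could hold the same transcripts were summed in each library. Calls among these short lists stand beside 6.39% of all genes called in either direction and 4.99% called lower. Border macrophages of the meninges and vessels, which share C1q, MHC class I and Fc receptor genes with microglia, summed to 10.2 to 13.99 CPM in Control libraries and 8.33 to 10.1 CPM in CBP-ifKO libraries (76.1%), every CBP-ifKO sum lying below every Control sum, with 3 of 9 markers tested, 0 called and no marker absent from all libraries. Monocyte and neutrophil markers summed to 59.95 to 71.1 CPM in Control libraries and 57.4 to 84.2 CPM in CBP-ifKO libraries, most of it from Fn1, with Ly6c2 at 0 in every library, and lymphocyte markers to 0.845 to 1.29 and 0.823 to 1.16 CPM, with Cd3e and Nkg7 at 0. Erythroid markers, a sign of blood left in the tissue, were all fitted higher (5 of 5, median 0.38, 0 called) and summed to 59.4 to 99.2 CPM in Control libraries and 65.4 to 189 CPM in CBP-ifKO libraries, replicate 1 being the high one. Of the 4 oligodendrocyte precursor markers, all 4 were called lower (Pdgfra, Cspg4, Vcan and Gpr17), with a sum of 188 ± 7.96 CPM in Control libraries and 145 ± 3.05 CPM in CBP-ifKO libraries (SD, n = 3). Astrocyte markers were at 94.3% of Control, oligodendrocyte markers at 95.9% and endothelial markers at 92.2%, with 0 called in each, beside 95.6% for the microglial members. Interneuron markers summed to 514 to 535 CPM in Control libraries and 455 to 486 CPM in CBP-ifKO libraries (90.8%), without overlap, with 5 of 5 fitted lower and 2 called, Sst (-0.51, edgeR adjusted p = 0.00154) and Slc32a1 (-0.38, 0.0450), which shares 24.9% of its exon bases with Gm14205 on the other strand. Excitatory neuron markers stood at 103% of Control in sum, Camk2a and Slc17a7 being the most abundant. Of these 8 markers, 5 were fitted lower, with a median log2 fold change of -0.08. Among them 1 was called, Wfs1 (-1.19, edgeR adjusted p = 8.34e-07). Neuronal genes also include the ligand genes Cx3cl1 and Il34, called lower above. The part of these cells in the values of the members and of the ligand genes was not tested.

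**Figure D5:**
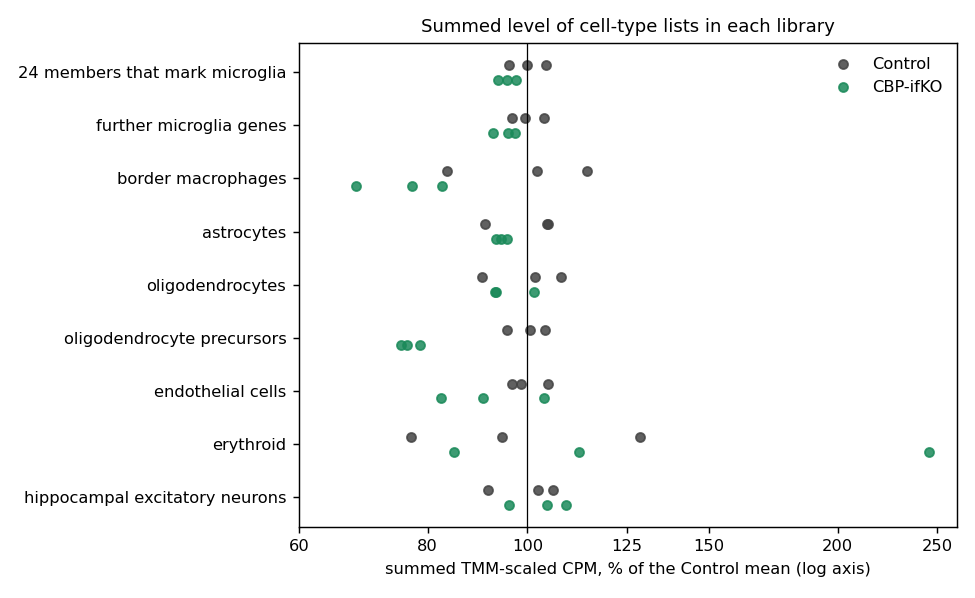
Summed TMM-scaled CPM of cell-type lists in each library as a percentage of the Control mean, on a log axis, with Control in grey and CBP-ifKO in green. The microglial members and further microglia genes lie close to the Control mean in every library, oligodendrocyte precursor markers lie lower in all 3 CBP-ifKO libraries, and erythroid markers scatter widely.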

How the data were processed

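Hippocampal RNA of 3 Control and 3 CBP-ifKO libraries (replicate numbers from the sample titles) was sequenced single-end. Per the study's methods and the submitters' processing notes, the authors trimmed reads (Trim Galore 0.6.4), aligned them with STAR 2.6.1 to GRCm38, kept reads of mapping quality above 10 and used Rsubread to count them over Ensembl exons. What the authors deposited are unnormalized counts per gene, and whether strand was used is not given in the sources used here. Symbols, coordinates and GC content came from GENCODE M21 of the same build, which matched 55230 of 55471 identifiers (99.57%).

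From the counts, edgeR 4.0.16 (R 4.3.3) gave a quasi-likelihood F-test over all genes kept by filterByExpr (minimum count 10, minimum total 15), with TMM scaling, no covariate and Benjamini-Hochberg adjustment, at a threshold of 0.05 with no fold cut-off. Members were read from this fit. Intervals are 95% and levels are mean ± SD of TMM-scaled CPM. No library was a copy of another (chi-square per degree of freedom at least 2.46 between replicates). Deviations of same-numbered libraries hardly correlated (0.077, 0.037 and 0.0022), and the numbers were not treated as pairs. The fit was tested on simulated data. Alternatives were DESeq2 1.42.0, other scalings and filters, each library left out, a replicate block, and offsets for GC content and length (natural splines, 5 degrees of freedom). The offsets were smoothed in each library without regard to genotype. A genotype difference that follows GC content or length can therefore be removed with them. Promoter letters were searched in RefSeq windows. All 33 members are named, with every library for the 12 of smallest p. From each pathway list the called genes and the 2 of highest CPM are named, and other genes were picked after their values were seen. The members and lists were chosen with earlier results of these data known.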

Additional observations from a re-analysis of the deposited data

How the results depend on the processing

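With 15 alternatives, the number of members called stayed at 0 except with no filter on low counts and when the replicate block was fitted along with GC and length offsets, each giving 1 member, lower (Ifit3). The median of the members ran from -0.09 to -0.02, the latter with library totals only, which moved the median of all genes to 0.043. Over the 6 fits without 1 library it ran from -0.087 to -0.043. Across all genes, 498 to 1326 were called in those 6 fits (546 without Control replicate 3, 498 without CBP-ifKO replicate 2, 526 without CBP-ifKO replicate 3), against 1149 with all libraries. With the replicate block alone 1210 genes were called and with the block plus GC and length offsets 1837, in which Camk2a was called (edgeR adjusted p = 0.0244); the same numbers only name libraries here. The cause was not tested. The replicate block alone changed the call of no member. Depth limits the members at a few CPM, such as Spi1 and Irf7.

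Among named genes the sign turned for 22 members in at least 1 alternative, none of them called there and none beyond 0.15 past 0. Under DESeq2 Irf8 was 0.0018. With library totals only P2ry13 was 0.0036, Olfml3 0.0038, Ptprc 0.0060, Irf8 0.031, Nfkb1 0.028 and Nfkbiz 0.0029. With the replicate block P2ry12 was -0.00017 and H2-D1 -0.0018. With GC and length offsets P2ry12 was -0.066, Csf1r 0.0093, Siglech -0.016, Olfml3 0.0086, Ctss -0.018, Irf8 0.027, Spi1 0.069, B2m -0.0052 and Irf7 0.029, and with the replicate block added P2ry12 was -0.074, Csf1r 0.0087, Siglech -0.018, Olfml3 0.0063, Ctss -0.019, Mpeg1 -0.00098, Irf8 0.031, Spi1 0.065, B2m -0.0043 and Irf7 0.020.

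Without 1 library, the sign also turned in the following ranges of log2 fold change: P2ry12 from -0.12 to 0.079, Siglech from -0.051 to 0.11, C1qb from -0.093 to 0.13, Tyrobp from -0.060 to 0.18, Ctss from -0.020 to 0.090, Spi1 from -0.24 to 0.091, B2m from -0.026 to 0.17, H2-D1 from -0.12 to 0.14, Gpr34 from -0.13 to 0.037, Cd33 from -0.047 to 0.20, Trem2 from -0.18 to 0.028, Ptprc from -0.15 to 0.10, Mpeg1 from -0.0080 to 0.077, Irf7 from -0.21 to 0.017, Fcgr3 from -0.17 to 0.14, Cd68 from -0.32 to 0.15, Irf8 from -0.13 to 0.11, Olfml3 from -0.10 to 0.050, Itgam from -0.087 to 0.25, P2ry13 from -0.10 to 0.043 and Aif1 from -0.26 to 0.13. Of the other named genes, Lgmn ran from -0.0037 to 0.14, Erap1 from -0.068 to 0.15, Nfkb1 from -0.064 to 0.049, Nfkbiz from -0.091 to 0.060, Fth1 from -0.12 to 0.0021, Ifi27 from -0.19 to 0.0014 and Tapbp from -0.035 to 0.20.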
